A study of Mus musculus with 12 samples.

Results

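Open chromatin was described at 10 genes of voltage-gated calcium channels in mouse dorsal root ganglia: Cacna1a, Cacna1b, Cacna1c, Cacna1d, Cacna1e, Cacna1g, Cacna1h, Cacna1i, Cacna2d1 and Cacna2d2. They were chosen by name, 10 of 21900 protein-coding genes of the RefSeq table for assembly GRCm38.p6 (mm10), without use of a measured value. The measurement was the set of ATAC-seq peak summits inside each gene or within 50 kb of either end. These were 275 of the 155267 summits in 4 deposited lists. The genes lie on 10 different chromosomes, so no summit was counted for more than 1 gene. Summits of any list that lay within 200 bp of the next were joined to a locus, which gave 143 member loci among 78381 in the genome.

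Voltage-gated calcium channels open when a membrane depolarises and let calcium into the cell. The pore is formed by an alpha1 subunit, which sets the channel type, and an alpha2delta subunit helps to carry the channel to the surface and to the nerve terminal. In sensory neurons N-type and P/Q-type channels trigger transmitter release in the spinal cord, T-type channels set excitability near rest, and L-type channels link activity to gene expression. The alpha2delta subunits bind gabapentin and pregabalin, drugs given for neuropathic pain.

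The ganglia came from wild-type (Silc1+/+) mice and from Silc1-/- mice, which lack the long noncoding RNA Silc1, with the sciatic nerve crushed or sham operated. Each of the 4 groups (wild-type sham, wild-type injured, Silc1-/- sham, Silc1-/- injured) had 3 libraries, 12 in all, and 1 summit list. Each library was made from 6 whole lumbar ganglia, which hold glia, vessel cells and immune cells beside the neurons. The sources used here do not give the time after surgery, the age of the mice, how the Silc1 allele was made or how many mice gave each library. With 1 list per group there is no spread between animals, and no difference between groups was tested. Wherever 4 values follow each other, they are in the order wild-type sham, wild-type injured, Silc1-/- sham, Silc1-/- injured. Intervals cover counting error only.

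The lists held 27279 to 48332 summits, with median scores of 4.77 to 6.33, and the files give no read depth. The score is the authors' value on a −log10 scale. It depends on depth, so scores were read within a list and are only set side by side across lists. Of 16 marker genes of sensory neurons, 6 to 10 had a summit within 1 kb of a gene end in a list, against 2 to 4 of 9 glial, 1 or 2 of 8 macrophage and 0 to 2 of 7 endothelial markers. The neuronal markers Calca, Ntrk3, Prrxl1, Ret and Runx3 had none at an end in any list, and among the glial markers neither did Sox10, Fabp7, Egr2 or Pmp22. In whole ganglia, fewer cells of a type and less open chromatin per cell cannot be told apart.

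The promoters of 5 genes are given as examples, picked from the starts with a sequence, that differ in how many lists had a summit. Their 250 bases before the annotated start are printed from RefSeq (GRCm38.p6), 5′ to 3′ in the direction of the gene. Capitals mark GGGCGG (a GC box) and CCAAT, or the reverse complement of either. Cacna1b (chr2:24763153-24763402, minus strand) and Cacna2d1 (chr5:15934441-15934690, plus strand) had a summit within 1 kb of the start in every list. Cacna2d2 (chr9:107399630-107399879, plus strand) had one in 1 list. Cacna1d at its GC-rich start (chr14:30353487-30353736, minus strand) and Cacna1i (chr15:80286988-80287237, plus strand) had none.
Cacna1b: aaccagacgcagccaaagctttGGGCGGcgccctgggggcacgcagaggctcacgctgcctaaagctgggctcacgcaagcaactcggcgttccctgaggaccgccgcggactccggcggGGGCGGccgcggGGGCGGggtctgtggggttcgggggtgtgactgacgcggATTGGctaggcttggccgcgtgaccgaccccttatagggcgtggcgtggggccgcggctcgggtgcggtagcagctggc
Cacna2d1: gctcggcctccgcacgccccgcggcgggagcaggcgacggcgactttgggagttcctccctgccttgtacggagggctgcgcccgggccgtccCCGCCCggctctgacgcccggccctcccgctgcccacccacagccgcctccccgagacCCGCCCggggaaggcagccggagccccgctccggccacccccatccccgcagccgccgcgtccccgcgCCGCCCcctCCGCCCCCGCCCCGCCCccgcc
Cacna2d2: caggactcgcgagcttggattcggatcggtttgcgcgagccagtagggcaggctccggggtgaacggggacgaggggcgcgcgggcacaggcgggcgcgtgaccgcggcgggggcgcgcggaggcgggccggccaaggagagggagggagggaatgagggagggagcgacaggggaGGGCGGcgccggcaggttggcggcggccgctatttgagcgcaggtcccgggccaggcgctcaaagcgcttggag
Cacna1d: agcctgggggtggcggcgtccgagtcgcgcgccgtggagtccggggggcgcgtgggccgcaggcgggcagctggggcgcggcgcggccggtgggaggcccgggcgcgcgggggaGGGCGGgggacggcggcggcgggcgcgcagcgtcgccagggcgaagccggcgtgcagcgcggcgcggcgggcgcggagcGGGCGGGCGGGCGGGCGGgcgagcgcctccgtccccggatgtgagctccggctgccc
Cacna1i: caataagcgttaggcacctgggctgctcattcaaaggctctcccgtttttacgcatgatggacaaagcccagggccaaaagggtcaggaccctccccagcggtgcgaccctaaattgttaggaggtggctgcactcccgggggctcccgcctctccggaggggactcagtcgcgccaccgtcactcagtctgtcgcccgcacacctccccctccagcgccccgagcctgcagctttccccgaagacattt

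The sequence table held 10 starts of 7 of the 10 genes (Cacna1b, 3 starts of Cacna1c, 2 of Cacna1d, Cacna1e, Cacna1i, Cacna2d1 and Cacna2d2). A summit of any list lay within 1 kb of 4 of these starts, against 57.5% of 21263 annotated starts of protein-coding genes. Among the 6 member starts whose 250 bases held at least 60% G and C, 4 had a summit in some list and 2 in all 4 lists. The same shares over 7763 coding starts of that composition were 85.8% and 67.7%. None of the 4 member starts below 60% had a summit within 1 kb, where 41.2% of 13500 coding starts did.

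GGGCGG was found 3 times in the Cacna1b sequence, 6 times in Cacna2d1, 5 times in Cacna1d, 1 time in Cacna2d2 and not in Cacna1i, counting both strands and overlapping matches. Thus the Cacna1d start, at 86.4% G and C with 50 CpG dinucleotides, held more copies than the Cacna1b start, at 72.0% with 29. Of this pair, Cacna1b alone had a summit within 1 kb of its start. Other GC-rich starts differed from Cacna1d. Cacna2d1, at 82.4% G and C with 6 copies, had such a summit in every list. The Cacna1c start at position 119108495, not printed, had 82.8% and 6 copies. It had such a summit in wild-type sham and Silc1-/- sham only. Of 5 motifs searched on both strands, GGGCGG was in 5 of the 10 member starts and 42.6% of coding starts, CCAAT in 3 of 10 and 35.4%, and TATAAA in 1 of 10 and 11.6%. TGANTCA, the letters bound by AP-1, and TGACGTCA, the cyclic AMP response element, were in none of the 10 member starts and in 6.13% and 1.92% of coding starts. A match of letters is a description of these 250 bases and not a binding site.

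Every list held at least 1 summit in or around each of the 10 genes. Wild-type sham held 51 member summits, wild-type injured 67, Silc1-/- sham 90 and Silc1-/- injured 67. As shares of the list these were 0.187%, 0.153%, 0.186% and 0.187%. The wild-type injured list thus had the smallest share, and the other 3 lists were nearly level.

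**Figure D1:**
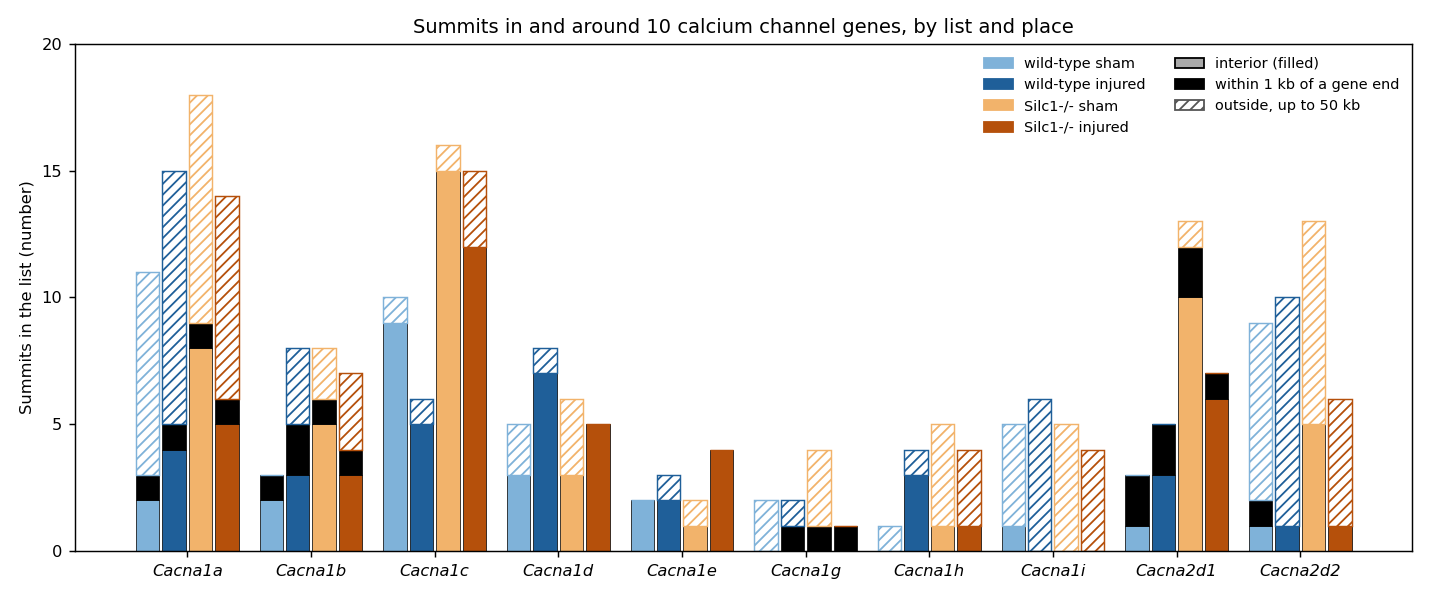
Number of summits (y axis) in and around each of the 10 genes (x axis) in the 4 lists, split into gene interior (filled), within 1 kb of a gene end (black) and outside up to 50 kb (hatched). Bars are plain counts of 1 list each with no error bar; Cacna1c and Cacna2d1 counts are mostly interior, and those of Cacna1i are nearly all outside the gene.

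Few of these summits were at the ends of the genes. Within 1 kb of a member end lay 5 of 51 summits (9.80%, 95% Wilson interval 4.26 to 21.0%), 6 of 67 (8.96%, 4.17 to 18.2%), 5 of 90 (5.56%, 2.40 to 12.4%) and 4 of 67 (5.97%, 2.35 to 14.4%). The 4 intervals overlap. In each list 4 of the 10 genes had an end summit, where the share of all protein-coding genes was 46.2%, 51.9%, 50.8% and 45.6%. Cacna1a, Cacna1b and Cacna2d1, 3 of 10, had one in all 4 lists, against 40.8% of protein-coding genes. Cacna1c, Cacna1d, Cacna1e, Cacna1h and Cacna1i had none in any list. These shares are close to the background, and 10 genes are too few to set them apart from it.

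The N-type pore gene Cacna1b (chr2:24603860-24763200), whose channel is the target of the analgesic ziconotide, held 3, 8, 8 and 7 summits. The summits nearest to its start lay 23, 134, 75 and 43 bp upstream, within the printed sequence. Their scores were 3.71, 3.66, 4.09 and 5.56. In their lists 73.1%, 72.2%, 59.8% and 43.3% of all summits scored as high or higher, so 3 of the 4 ranked in the lower part. Wild-type injured had a further end summit inside the gene, at position 24762397 with a score of 1.78.

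Higher scores at Cacna1b were found inside the gene. A locus at chr2:24734573-24734719, 28627 bp from the nearer end, scored 6.33, 9.88, 14.5 and 12.1. A second at chr2:24629790-24629931 scored 4.89, 9.38, 14.0 and 7.31. In each of the 4 lists both interior loci scored higher than the summit at the start. They were also the highest-scoring of the interior loci found in all 4 lists and away from every gene end.

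The P/Q-type pore gene Cacna1a (chr8:84338631-84640251) had the most summits of the 10 genes in wild-type sham, wild-type injured and Silc1-/- sham, with 11, 15 and 18, and 14 in Silc1-/- injured. Its end locus, at chr8:84639558-84639660 and 633 bp inside the higher-coordinate end, scored 18.4, 29.1, 10.9 and 11.7. This was the highest score at a member end in each list, and the lncRNA gene Gm39212 ends within 1 kb of it. Outside the gene on that side, 4 further loci were in all 4 lists. Of these, 3 were within 1 kb of an end of the immediate early gene Ier2 or of Nacc1. Inside Cacna1a, a locus at chr8:84414569-84414620 was called in both Silc1-/- lists (9.60 in sham, 3.47 in injured) and in wild type after injury (6.54) but not after sham surgery. Of the 143 member loci 9 were in every list but wild-type sham (6.29%, interval 3.35 to 11.5%), against 4.67% of all loci.

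The R-type pore gene Cacna1e (chr1:154390806-154884785), the second longest of the set, held 2, 3, 2 and 4 summits. No locus was in all 4 lists. The locus with the highest score, chr1:154786383-154786427, was within 1 kb of an end of the lncRNA gene Gm51649 and scored 7.62 and 10.4 in the wild-type lists and 6.40 in Silc1-/- sham. It was absent from Silc1-/- injured. That list instead held an interior summit of score 5.08 at position 154461701 that no other list had.

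**Figure D2:**
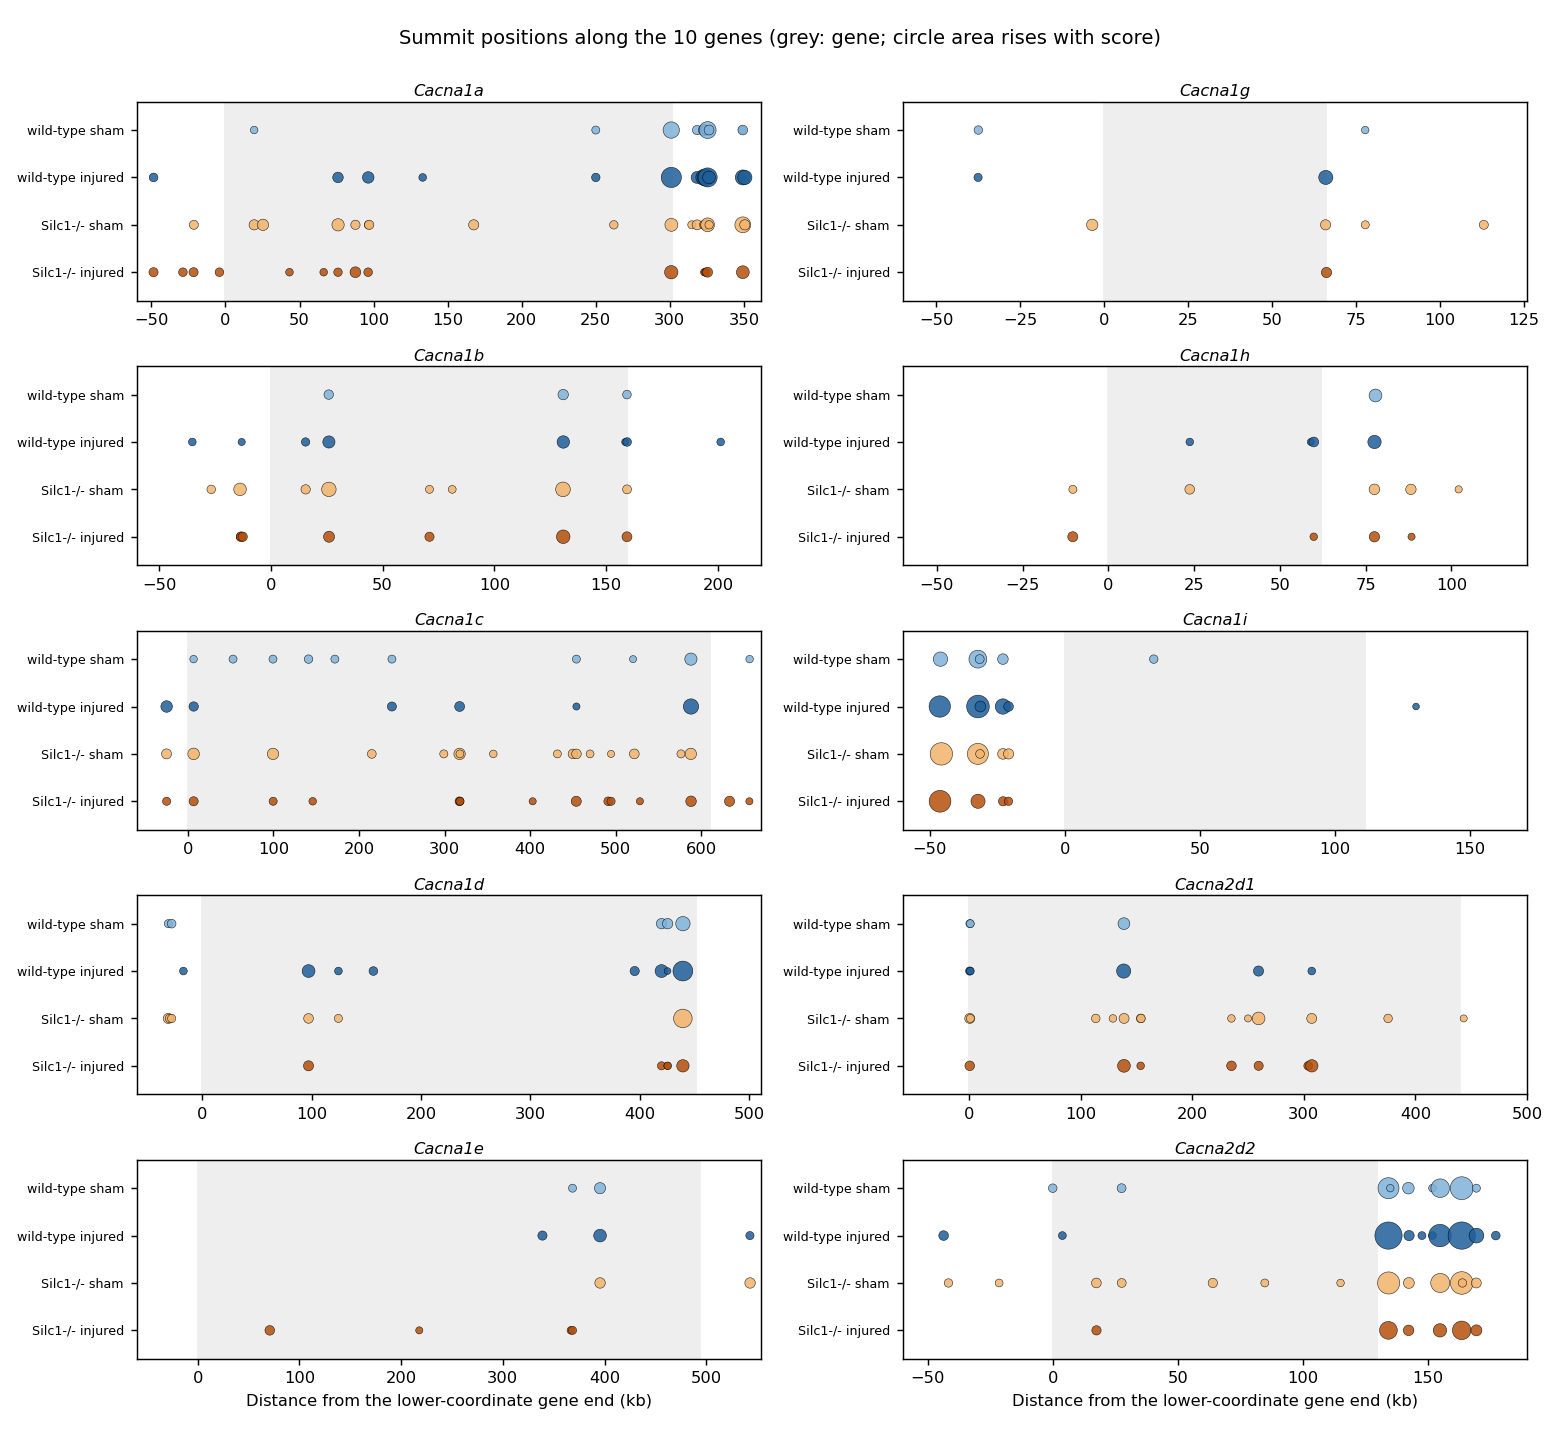
Map of the summits of the 4 lists along each of the 10 genes, with distance from the lower-coordinate gene end in kb on the x axis, the gene as a grey bar, 1 row of circles per list, and circle area rising with the score. Cacna1e and Cacna1i are nearly empty inside, Cacna1c carries scattered small circles, and the largest circles around Cacna2d2 lie beyond the gene.

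The L-type pore gene Cacna1c (chr6:118587240-119197384), the longest of the 10, carried the most interior summits in 3 of the 4 lists: 9 in wild-type sham, 15 in Silc1-/- sham and 12 in Silc1-/- injured. Wild-type injured had 5. Only 3 of its 28 loci were in all 4 lists. The highest-scoring of these, chr6:119175201-119175447 with 9.47, 16.0, 7.94 and 6.55, was at an end of Dcp1b, a gene for an mRNA decapping factor that overlaps Cacna1c by 22.1 kb. The others, chr6:118593811-118593950 and chr6:119041229-119041456, were away from any gene end. The first scored 2.32, 4.74, 8.34 and 4.39, and the second 2.89, 1.90, 5.20 and 5.79.

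None of the 3 starts of Cacna1c in the sequence table had a summit within 1 kb in every list. At the GC-rich start at position 119108495 (82.8% G and C, 48 CpG dinucleotides), 2 lists had a summit within 1 kb: wild-type sham 866 bp downstream with a score of 1.83, and Silc1-/- sham 604 bp upstream with a score of 5.35.

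The L-type pore gene Cacna1d (chr14:30039941-30491156), which encodes a channel that opens at lower voltages, held 5, 8, 6 and 5 summits. Its highest-scoring locus in every list, chr14:30479565-30479601 with 13.8, 28.1, 24.4 and 9.74, was at an end of Dcp1a. This paralogue of Dcp1b overlaps Cacna1d by 11.7 kb. Thus at both L-type genes among the members a decapping-factor gene lies at the high-coordinate end. The end of that gene holds a summit in all lists. Around the printed GC-rich start of Cacna1d the nearest summits were 106572, 82018, 126079 and 106533 bp away. Of the coding starts with at least 80% G and C, 335 in all, 85.1% had a summit of some list within 1 kb.

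Inside Cacna1d and away from gene ends, chr14:30137167-30137195 was called in every list but wild-type sham, the shortest, with 10.6 in wild type after injury and 5.21 and 5.81 in Silc1-/-. A second locus, chr14:30460019-30460058, scored 6.33 and 10.7 in the wild-type lists and 3.09 in Silc1-/- injured. It was absent from Silc1-/- sham, the longest list.

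The T-type genes had few summits. Cacna1g (chr11:94408391-94474400) held 2, 2, 4 and 1, none of them interior. Its end locus at chr11:94474380-94474444 was likewise called in every list but wild-type sham, with 13.3 in wild type after injury and 5.98 and 6.15 in Silc1-/-. Cacna1g was the only 1 of the 10 genes whose end was called in exactly 3 lists.

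Cacna1h (chr17:25374285-25436334), which encodes the main T-type channel of sensory neurons, held 1, 4, 5 and 4 summits. A locus outside the gene at chr17:25451827-25451859 was in all 4 lists, with scores of 10.6, 11.6, 6.61 and 6.34, and was the 1 summit of the wild-type sham list. Inside, chr17:25434142-25434144 was called in both injured lists and in neither sham list, with scores of 5.39 in wild type and 2.38 in Silc1-/-. Of the 143 member loci 2 had this pattern (1.40%), against 2.72% of all loci.

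Cacna1i (chr15:80287238-80398292) held 5, 6, 5 and 4 summits, of which 1 was interior, in wild-type sham with a score of 3.54. The summits nearest to its printed start were 22879, 20792, 20773 and 20826 bp upstream. The neighbourhood, by contrast, held high scores. A site 46141 bp from the gene, chr15:80240989-80241262, scored 13.8 and 33.0 in the wild-type lists and 34.2 in Silc1-/- injured, the highest member score of that list. The Silc1-/- sham list had a summit of score 36.4 at position 80241582, beyond the joining distance, so it counts as a locus of its own. Nearer to the gene, a locus at the end of Atf4, a stress-response transcription factor gene, scored 22.5, 37.3, 31.8 and 13.3. One at the end of Rps19bp1 scored 6.64, 16.1, 6.74 and 4.49.

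The gene of the first alpha2delta subunit, Cacna2d1 (chr5:15934264-16374511), is known for a rise of its transcript in dorsal root ganglia after nerve injury. It held 3, 5, 13 and 7 summits, the most in Silc1-/- sham. Interior summits numbered 1, 3, 10 and 6. At the start the nearest summits lay 59, 277, 169 and 174 bp upstream with scores of 2.92, 3.18, 5.67 and 5.08. A further end locus inside the gene, chr5:15935024-15935095, scored 2.92, 2.57 and 3.01 in every list but Silc1-/- injured. The lncRNA gene Gm3510 ends next to this start.

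Inside Cacna2d1, wild-type sham (8.65), Silc1-/- sham (5.67) and Silc1-/- injured (10.6) shared a locus at chr5:16072830-16072958. In wild-type injured a summit of score 13.4 was at position 16072610, which lay 220 bp from the nearest of these and so just outside the 200 bp used for joining. This position therefore counts as 2 loci, although all 4 lists have a summit there. Another 2 loci were in every list but wild-type sham. The first, chr5:16193592-16193706, scored 5.92 in wild-type injured and 10.4 and 4.39 in the Silc1-/- lists. The second, chr5:16241308-16241388, scored 2.57 in wild-type injured and 5.67 and 9.74 in the Silc1-/- lists.

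Cacna2d2 (chr9:107399733-107529346), the gene of the second alpha2delta subunit, held 9, 10, 13 and 6 summits, with 1, 1, 5 and 1 interior. At its start only wild-type sham had a summit, 132 bp upstream with a score of 3.63. The nearest summits of the other lists were 3726, 17311 and 17353 bp downstream. Both Silc1-/- lists, and neither wild-type list, had a summit at chr9:107417191-107417233, with scores of 5.30 in sham and 4.66 in injured. The high scores lay beyond the gene in a dense stretch of short genes. The locus at the ends of Rassf1 and Tusc2, 33873 bp away, scored 38.1, 55.2, 37.1 and 24.5. This was the highest score of all member loci in every list but Silc1-/- injured. The end of Tmem115 scored 31.8, 54.8, 35.4 and 22.1.

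**Figure D3:**
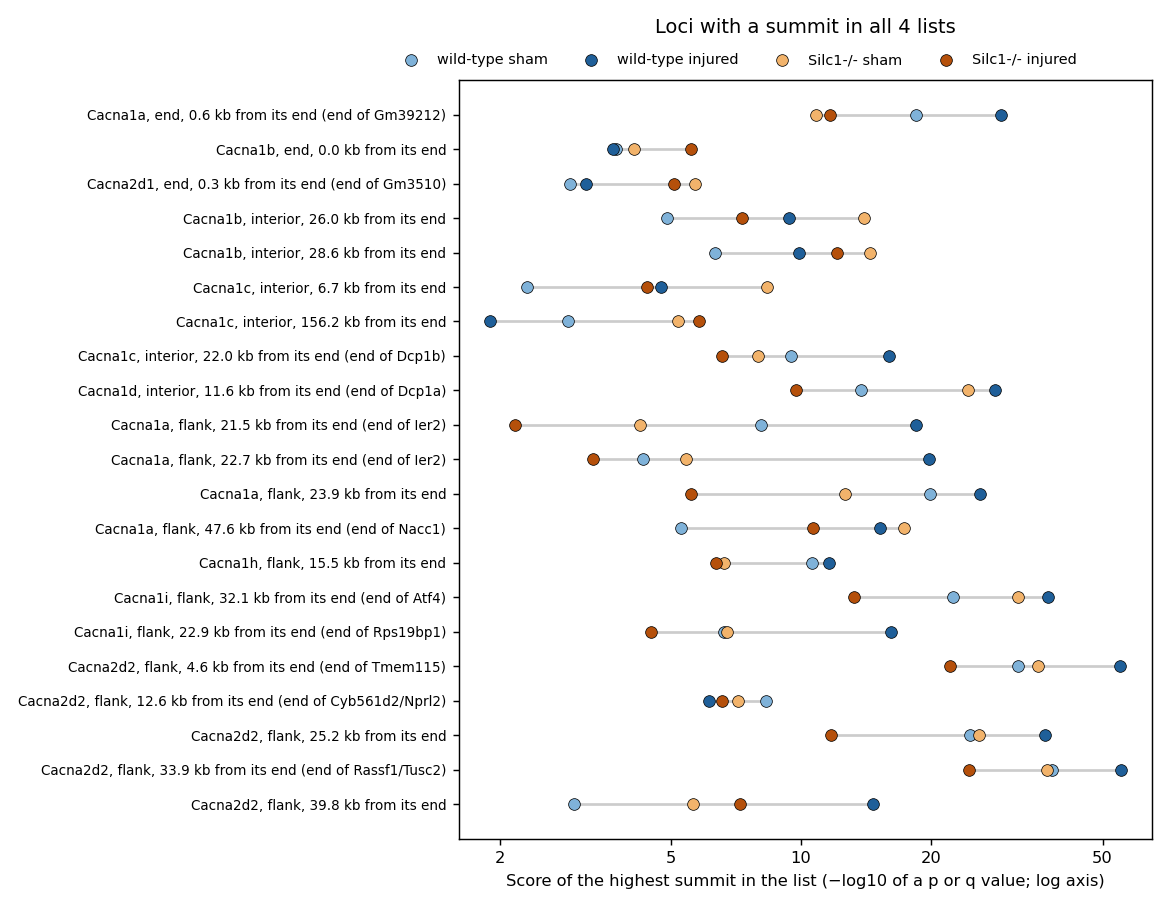
Score of the highest summit in each of the 4 lists (x axis, −log10 of a p or q value, log axis) at the 21 loci that all 4 lists hold, named by gene and distance from its end, with 1 point per list and a grey line over their range. Scores depend on depth and are not compared between lists; loci at Rassf1/Tusc2, Tmem115 and Atf4 lie far to the right of the loci at Cacna1b and Cacna2d1.

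Over the 143 member loci, 21 were in all 4 lists (14.7%, interval 9.81 to 21.4%), against 18.3% of all loci. Of these 21, 3 were at member ends, 6 were interior and 12 lay outside the gene. Of the 71 interior loci away from every gene end, 4 were in all 4 lists (5.63%, 2.21 to 13.6%), all of them at Cacna1b or Cacna1c, where the share over all loci away from gene ends was 10.7%. At gene ends 42.1% of all loci were in all 4 lists.

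Loci of a single list made up 75 of the 143, or 52.4%, the same as the 52.4% over all loci. Silc1-/- sham, the longest list, held 33 of them, wild-type injured and Silc1-/- injured 17 each and wild-type sham 8. Their median score was 3.04, and 11 scored at least 5. For 16 of the 75 another list had a summit within 1 kb. Both Silc1-/- lists and neither wild-type list held 10 loci (6.99%, 3.84 to 12.4%), against 4.38% of all loci. Of those 10, 7 were interior, at Cacna1a, Cacna1b, Cacna1c, Cacna2d1 and Cacna2d2. Both wild-type lists and neither Silc1-/- list held 5 (3.50%), against 2.38% of all loci.

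The member summits were low in their lists in wild-type sham: 17.6% scored at least 10, against 33.9% of the whole list. In Silc1-/- sham these shares were 14.4% and 23.0%, and in Silc1-/- injured 13.4% and 22.7%. In wild-type injured they were 32.8% and 30.4%, so there the member summits were about as high as the list. Of the 22 summits behind that value 14 lay outside the genes, 2 at member ends and 6 in the interior, 3 of these at the end of another gene.

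The density inside the genes was given as summits per 100 kb. Its median over the 10 genes was 0.791, 0.978, 2.04 and 1.35. Over all 4945 protein-coding genes of at least 50 kb the median was 0.953, 1.67, 1.92 and 1.36. The members' median was near that of other long genes in Silc1-/- and below it in wild-type injured. For wild-type sham the order depended on the statistic, since summits per 100 kb over all genes together were 0.920 for members and 0.919 for long genes. In wild-type injured they were 1.13 and 1.67. No summit was inside 2, 2, 1 and 2 of the 10 genes, against 29.5%, 17.7%, 14.0% and 21.8% of the long genes. This density is not scaled to list length.

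The effect of nerve injury was read as the ratio of summit counts after each was divided by its list length. Over the 10 genes together the log2 ratio of wild-type injured to wild-type sham was −0.29 (67 against 51 summits, exact 95% interval −0.84 to 0.26). In Silc1-/- it was 0.0067 (67 against 90, −0.47 to 0.48). Neither interval excludes an equal share. Per gene, with a pseudocount of 1, the median of the 10 log2 ratios was −0.15 in wild type and 0.09 in Silc1-/-, beside medians of −0.07 and 0.02 over the 20077 protein-coding genes with a summit. Over the 4878 of these genes that were at least 50 kb long, as all 10 members are, the medians were 0.04 and −0.04.

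In wild type, 1 member was at least 2-fold lower after injury: Cacna1c, with 6 against 10 summits and a log2 ratio of −1.27. None was at least 2-fold higher. Of all protein-coding genes 3.86% were at least 2-fold lower and 5.88% at least 2-fold higher. Among genes of at least 50 kb these shares were 3.26% and 8.08%. The direction for Cacna1c turned when only summits with a score of at least 5 were counted, with 3 against 1 and a log2 ratio of 0.60. The nearest to the threshold on the other side was Cacna1h, with 4 against 1 summits and 0.91.

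In Silc1-/-, Cacna1e was at least 2-fold higher after injury, with 4 against 2 summits and a log2 ratio of 1.03, and Cacna1g was at least 2-fold lower, with 1 against 4 and −1.02. The background was 5.17% higher and 5.36% lower, and among genes of at least 50 kb it was 3.34% and 6.62%. One summit more or fewer would take either gene back below the threshold. At a score of at least 5 Cacna1e had 1 against 2 summits, and its log2 ratio was −0.38.

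The effect of the missing Silc1 was read in the same way. Among the sham lists the log2 ratio of Silc1-/- to wild type over the 10 genes was −0.0058 (90 against 51 summits, −0.52 to 0.52). Among the injured lists it was 0.29 (67 against 67, −0.22 to 0.80). The member medians were −0.12 and 0.13, and the medians over all genes −0.17 and −0.02. Over genes of at least 50 kb the medians were 0.11 and 0. In sham the member median was thus above that of all genes and below that of long genes. The 4 contrasts share lists and are not independent of each other.

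In the sham lists Cacna2d1 (13 against 3 summits, 1.12) and Cacna1h (5 against 1, 1.05) were at least 2-fold higher in Silc1-/- and none was at least 2-fold lower, beside 7.43% and 6.11% of all protein-coding genes. Among genes of at least 50 kb 12.1% were at least 2-fold higher and 4.04% at least 2-fold lower. For Cacna2d1 the value was 0.32, with 4 against 3 summits, when each list was limited to its 27279 highest-scoring summits. For Cacna1h it was −1.09 at a score of at least 10, with 0 against 1 summit. In the injured lists Cacna1c was at least 2-fold higher in Silc1-/- (15 against 6, 1.45) and none was at least 2-fold lower, beside 5.28% and 6.01%. Among genes of at least 50 kb these shares were 5.23% and 6.44%. At a score of at least 10 the value for Cacna1c was −0.84, with 0 against 1 summit.

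**Figure D4:**
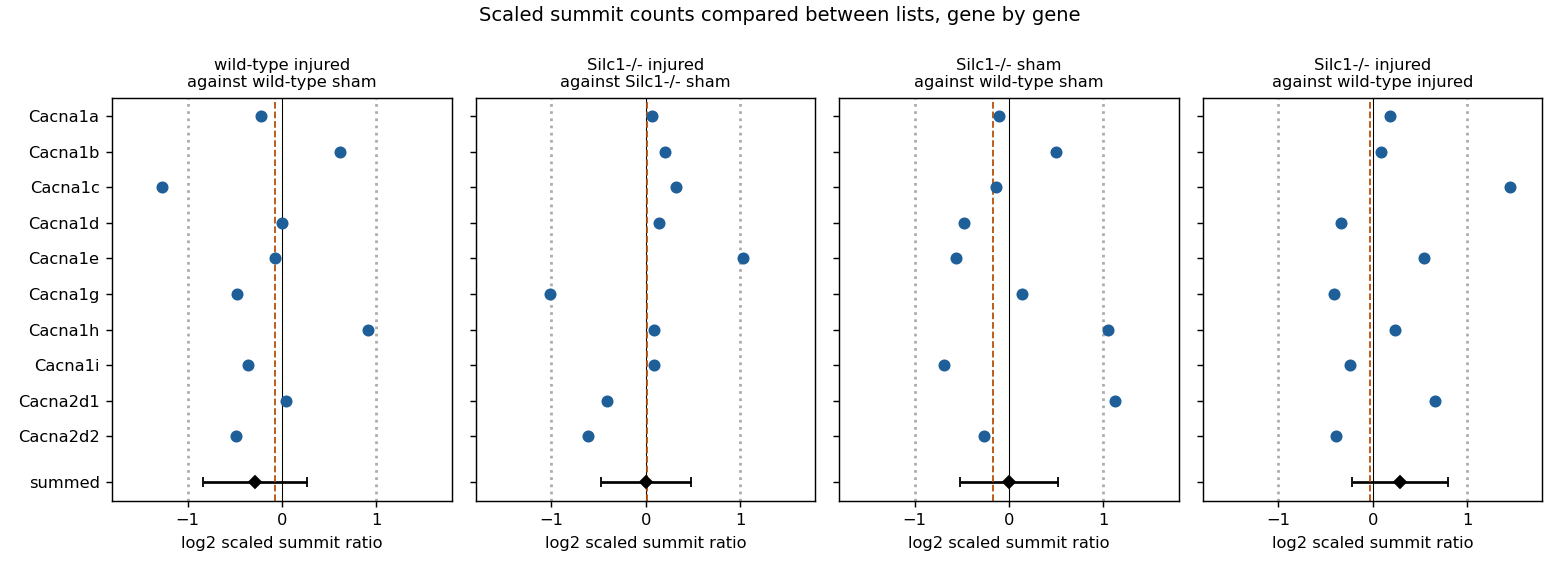
Log2 ratio of summit counts scaled to list length (x axis) for each of the 10 genes (y axis), with 1 panel per contrast and 1 dot per gene. A black diamond in the lowest row gives the 10 genes together, with its exact 95% interval for counting error. A dashed orange line marks the median of all protein-coding genes with a summit. All 4 intervals include 0, and single genes pass the dotted 2-fold lines in each contrast.

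The other 16 genes of calcium channel subunits, which include the beta and gamma subunits and the pore genes of muscle and retina, held 41, 66, 88 and 57 summits in the 4 lists. Cacnb4, with 33, and Cacna2d3, with 30 over all lists, had the most, and Cacng1, with 1, and Cacng3, with 3, the fewest. Their log2 ratios were 0.0024 for injury in wild type, −0.19 for injury in Silc1-/-, 0.28 for genotype in sham and 0.08 for genotype in injured. In the sham lists 2 of these 16 genes, Cacng6 and Cacng8 with 3 against 0 summits each, were at least 2-fold higher in Silc1-/-. The number was also 2 for the 10 members, and the share of all protein-coding genes with a summit was 7.43%. Some windows in the set of 16 overlap, so a summit can count for more than 1 of its genes.

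The 9 sodium channel alpha genes had log2 ratios of −0.27, −0.22, 0.14 and 0.18 in the same order, each with an interval that includes 0. The 22 potassium channel genes of the Kcna, Kcnb, Kcnc, Kcnd and Kcnq families differed in 1 contrast: Silc1-/- sham against wild-type sham gave 136 against 49 summits and 0.65 (0.17 to 1.15). In it 11 of 22 genes were at least 2-fold higher, beside 7.43% of all protein-coding genes with a summit. The calcium channel value in that contrast was −0.0058 with an upper bound of 0.52. The difference between the 2 families was not tested, since each rests on the same pair of lists.

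Sharing of single summits was set beside that of the whole list for all 12 ordered pairs of lists. The widest gap was in wild type: of the 51 member summits of the sham list, 58.8% (45.2 to 71.2%) had a partner within 200 bp after injury, against 72.9% of that list. In the other direction, 44.8% of member summits of wild-type injured had a partner in sham, against 45.4% of the list, so no such gap was seen there. In Silc1-/- sham 44.4% of member summits had a partner after injury, against 45.7% of the list. In Silc1-/- injured 61.2% had a partner in sham, against 61.5%.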

How the data were processed

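Per the labels, ATAC-seq libraries were made from wild-type and Silc1-/- ganglia after sham surgery or nerve crush, and each sample's group follows its genotype and treatment labels. Bowtie2, MACS2 and mm10 are named in the submitters' processing notes; the sources used here give no versions or filters, and do not say whether insertion positions were shifted or the 3 libraries of a group pooled. The deposited score of each summit is a −log10 value. Whether it is that of p or of q is not stated. The smallest lies just above 1.30, −log10 of 0.05.

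Positions are 1-based. Genes came from the RefSeq table of GRCm38.p6, the same build as mm10, which gives neither strand nor exons, so both gene ends were used and interior summits were not split into exon and intron. Starts, strands and promoter sequences came from a RefSeq table of the same assembly. An end summit lay within 1 kb of a gene end. Ratios per gene were log2 of counts scaled to the mean list length with 1 added to each, so changes at genes with few summits appear too small; called means at least 2-fold. Shares have 95% Wilson intervals, and ratios of summed counts exact (Clopper-Pearson) conditional binomial intervals. With 1 list per group there was no test. Read depth is unknown.

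All 10 members were described, with their end loci, their highest interior loci, interior loci of 2 or 3 lists with scores of at least 5 and single-list loci of at least 10 as the naming rule; other loci were chosen after their values were seen. The members, lists and rules were chosen with earlier results of these data known. The counting and joining were tested on simulated data. Alternatives were neighbourhoods of 10 and 100 kb or the gene alone, end distances of 500 and 2500 bp, score minimums of 5 and 10, equal list lengths, and joining at 50, 500 and 1000 bp. Python 3.11.15, numpy 2.4.6, pandas 2.3.3, scipy 1.17.1 and matplotlib 3.10.9 were used.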

Additional observations from a re-analysis of the deposited data

Results flagged for a closer look

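At 2 genes the contrasts went in opposite directions in the groups compared and at least 1 of them was past 2-fold; opposite signs with both values under 2-fold are not given here. None of these differences was tested, since each group has 1 list. For Cacna1c the log2 scaled ratio of injured to sham was −1.27 in wild type and 0.32 in Silc1-/-, a difference of 1.59. The same 4 counts, read by genotype, gave −0.14 in sham and 1.45 in injured, which is again a difference of 1.59. For Cacna1e the ratio of injured to sham was −0.07 in wild type and 1.03 in Silc1-/-, a difference of 1.11 that rests on 2 to 4 summits per list.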

How the results depend on the processing

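Of 50 alternative values for the main ratios and shares, 46 moved by no more than their counting interval, though some of these changed sign. The log2 ratio of wild-type injured to sham was 0.17 at scores of at least 5, where the main value was −0.29. The 4 values that moved further came with score minimums and a shorter joining distance. The log2 ratio of Silc1-/- sham to wild-type sham was 0.67 at scores of at least 5 (45 against 20 summits). At scores of at least 10, wild-type injured against sham was 0.77 (22 against 9) and Silc1-/- injured against wild-type injured −0.58 (9 against 22). With 50 bp for joining, 4.81% of 187 member loci were in all 4 lists, against 6.88% of all loci, as the shorter distance splits the 143 loci into more. For single genes past 2-fold, 15 of 36 alternative values stayed past it, 13 kept the direction and fell short, 3 were 0, and 5 turned: Cacna1c after injury in wild type (0.60 at scores of at least 5, 0.84 at 10), Cacna1e after injury in Silc1-/- (−0.38 at 5), Cacna1h by genotype in sham (−1.09 at 10) and Cacna1c by genotype in injured (−0.84 at 10). These rest on 0 to 3 summits per list. Members at least 2-fold higher and lower numbered 0 to 1 and 0 to 3 over the settings for injury in wild type, 0 to 1 and 0 to 1 in Silc1-/-, 1 to 3 and 0 to 2 for genotype in sham, and 1 to 2 and 0 to 1 in injured. No paired analysis was possible because each group has 1 list and no test was made; for the same reason no replicate could be left out. Unknown depth limits every comparison of list lengths and of absent summits.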
